A study of Mus musculus with 6 samples.

Results

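The 8 chemokine receptor genes described here were Cx3cr1, Ccr1, Ccr2, Ccr3, Ccr7, Cxcr4, Ccrl2 and Ackr3, taken by symbol from a table of 56092 gene symbols. All 8 had at least 1 row in the table. They were measured by bulk RNA-seq in RAW264.7 cells, a transformed mouse macrophage line, stably transduced by lentivirus with either a negative-control hairpin (shNC) or a hairpin that targets Trem2 (shTrem2), with GFP and puromycin selection in the vector system. Cells of both groups were first polarised for 24 hours with 20 ng/mL IL-4, followed by 24 hours with debris of frozen and thawed TCMK-1 tubular epithelial cells. There were 3 libraries per group. None of the 6 lacked IL-4 or debris, so the comparison is between the hairpin groups only and says nothing on the effect of either treatment. The sources used here do not say which of the study's Trem2 shRNAs was used, or whether all 3 shTrem2 libraries carried the same one. Nor do they say whether replicates came from separate cultures, so p-values measure only the spread between these libraries. Any other difference between the 2 groups cannot be told apart from loss of Trem2.

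Chemokine receptors are 7-transmembrane proteins that read gradients of small secreted chemokines, and most pass the signal through inhibitory G proteins to calcium release, PI3K and the actin cytoskeleton. Ccr2, the receptor of Ccl2, brings inflammatory monocytes out of bone marrow into injured tissue, whereas Cx3cr1, the receptor of the membrane-tethered chemokine Cx3cl1, marks patrolling monocytes, microglia and many resident macrophages, including those of the kidney. Ccr1 binds Ccl3, Ccl5 and Ccl9, Ccr3 is the eotaxin receptor of eosinophils, Ccr7 guides mature dendritic cells and T cells to lymph nodes, and Cxcr4 binds Cxcl12. The remaining pair are atypical: Ccrl2 presents chemerin without signalling of its own, and Ackr3 scavenges Cxcl12.

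Cx3cr1, Ccr1 and Ccr2 were higher in all 3 shTrem2 libraries than in any shNC library, and Ccrl2 was lower. Such absence of overlap was common, as it held for 63.5% of all tested genes. Cxcr4 was low, and its groups overlapped. Ccr3, Ccr7 and Ackr3 were at or next to the detection floor. The first 3 changed by 4.13-fold, 10.1-fold and 3.16-fold, while Ccrl2 was 1.74-fold lower. RefSeq start regions of genes that rose are shown because their sequence is compared with that of Cxcr4, which showed no detectable difference. Each runs 5′ to 3′ on the gene's own strand, from 250 bases before the annotated start to 50 bases into the transcript, in the build GRCm38.p6, and capitals mark matches to the TATA box TATAAA, the CCAAT box, GAGGAA (the core of sites for the macrophage factor PU.1) or the AP-1 site TGANTCA, searched on both strands.
Cx3cr1, chr9:120068247-120068546, minus strand: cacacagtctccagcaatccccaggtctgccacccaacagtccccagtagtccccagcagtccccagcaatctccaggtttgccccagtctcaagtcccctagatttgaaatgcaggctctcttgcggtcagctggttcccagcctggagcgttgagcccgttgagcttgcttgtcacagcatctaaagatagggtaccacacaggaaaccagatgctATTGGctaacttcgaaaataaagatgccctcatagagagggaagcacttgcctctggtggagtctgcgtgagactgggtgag
Ccr1, chr9:123968643-123968942, minus strand: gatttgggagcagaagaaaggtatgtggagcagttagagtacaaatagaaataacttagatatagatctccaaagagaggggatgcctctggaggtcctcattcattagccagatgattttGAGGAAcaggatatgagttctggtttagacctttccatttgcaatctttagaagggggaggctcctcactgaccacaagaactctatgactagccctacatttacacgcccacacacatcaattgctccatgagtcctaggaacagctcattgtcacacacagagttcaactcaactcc
Ccr2, chr9:124101933-124102232, plus strand: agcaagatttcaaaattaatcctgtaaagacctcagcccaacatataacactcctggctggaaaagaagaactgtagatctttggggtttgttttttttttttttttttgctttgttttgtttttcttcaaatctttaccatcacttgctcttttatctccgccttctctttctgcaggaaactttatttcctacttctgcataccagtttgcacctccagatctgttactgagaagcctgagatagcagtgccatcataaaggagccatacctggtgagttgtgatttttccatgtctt
Cxcr4, chr1:128592250-128592549, minus strand: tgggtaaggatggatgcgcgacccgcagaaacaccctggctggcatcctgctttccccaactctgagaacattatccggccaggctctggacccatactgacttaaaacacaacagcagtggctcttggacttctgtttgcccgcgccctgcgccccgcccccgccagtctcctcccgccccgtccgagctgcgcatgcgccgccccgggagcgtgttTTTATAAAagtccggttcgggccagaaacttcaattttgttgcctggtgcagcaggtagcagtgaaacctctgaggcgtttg

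The 3 start regions of receptors that rose shared none of the motifs with each other. That of Cx3cr1 held 1 CCAAT match, on the opposite strand and 32 bases before the start, and that of Ccr1 held 1 GAGGAA match 129 bases before it. No motif matched in the Ccr2 region. The Cxcr4 region carried overlapping TATAAA matches, on opposite strands, that began 32 and 30 bases before its start. Among 32851 RefSeq start regions of the same length, the share with a match was 37.4% for CCAAT, 28.3% for GAGGAA, 13.6% for TATAAA and 7.81% for TGANTCA. The regions also differed in base composition: Cx3cr1 held 5 CG dinucleotides, Ccr1 and Ccr2 1 each and Cxcr4 20, where the median region held 7, 14.1% held 1 or none and 26.5% held 20 or more. Of the 8 receptors, 7 had an entry in this table. Among those not shown, Ccr3 held 1 CG dinucleotide and 1 match each to the CCAAT box, the PU.1 core and the AP-1 site. The Ackr3 region held 8 CG dinucleotides, 1 match to the TATA box and 1 to the CCAAT box. The start regions of Ccrl2, which fell, held 6 or 8 CG dinucleotides, and the one with 6 held 2 matches to the CCAAT box. Neither motif matches nor CG counts thus set the receptors that rose apart from the others. A match is a string of letters, not a measured binding site, and the start used in these cells was not measured.

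Depth was similar across libraries, between 15876061 and 19655158 counts assigned to a symbol per library, but every shTrem2 library was deeper than every shNC library. The shNC libraries held 15876061, 17787370 and 18088372 such counts and the shTrem2 libraries 19458720, 19358113 and 19655158. A count of 0 allowed up to 3 counts, or between 0.153 and 0.189 CPM, the count scaled to a common library total. This limit covers counting error only. The knocked-down gene, Trem2, had 128 ± 14.9 CPM in the control line and 68.5 ± 9.32 CPM with shTrem2 (mean ± SD of 3 libraries), a log2 fold change of -0.87, and every shTrem2 library lay below every shNC library. Of its 4 transcript rows, 1 went the other way, from 402 to 587 counts in shNC to 840 to 1074 counts in shTrem2. The size of the fall depended on how that row was weighed: Trem2 went from 178 to 41.7 FPKM, and with an offset for effective length its log2 fold change was -2.06. The macrophage label held for most of its markers, since 8 of 9 exceeded 3 counts in at least 1 library and Mertk, an engulfment receptor, did not. The paper's name for the cells, Arg1+ macrophages, was not matched by the RNA counts of its defining gene. Arg1, the arginase induced by IL-4 in macrophages, had between 1 and 3 counts in every library. The IL-4 targets Chil3 and Retnla had 0 in all 6. By other assays of transcript and protein, the paper reports that IL-4 raised Arg1 in RAW264.7 cells. Of 12 tubular epithelial markers, 7 were at 0 in all libraries and Aqp1 reached the highest count, 50. The summed level of these 12 was 0.67 to 1.20 CPM in shNC and 2.09 to 2.74 CPM in shTrem2. That rise was in Aqp1, from a mean of 0.457 to 2.17 CPM, while Lrp2, the only other one over 3 counts, was lower, with 0.378, 0.281 and 0.442 CPM in shNC against 0.154, 0.155 and 0.102 CPM in shTrem2.

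**Figure D1:**
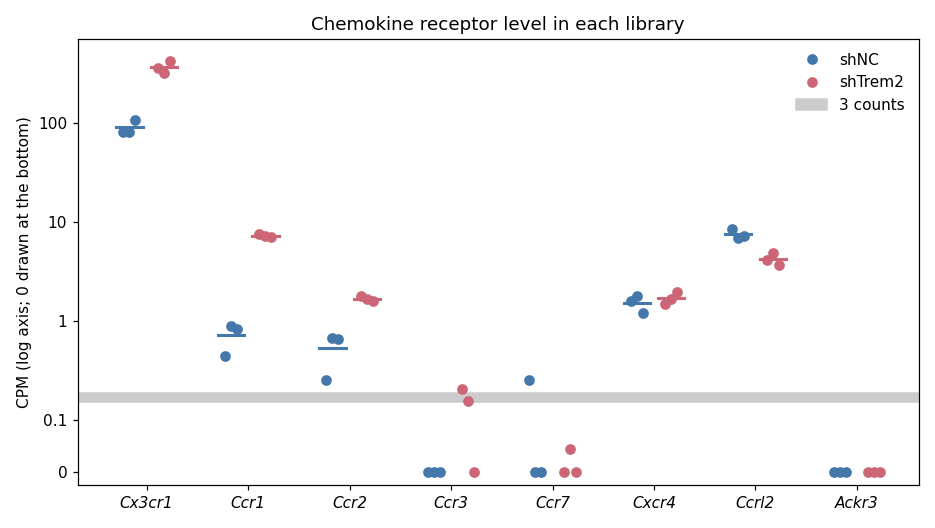
CPM (log axis, with 0 drawn at the bottom) of each receptor in the 3 shNC and 3 shTrem2 libraries. Points are libraries, bars are group means where no library is at 0, and the grey band is the level of 3 counts. Cx3cr1, Ccr1, Ccr2 and Ccrl2 show no overlap between groups, as did 63.5% of all tested genes. Cxcr4 shows overlap, and Ccr3, Ccr7 and Ackr3 lie around the band or at 0.

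Differences were tested with edgeR's quasi-likelihood model over 13528 genes, and differentially expressed genes (DEGs) had a false discovery rate (FDR) under 0.05 and a fold change over 1.5. Among all tested genes, 21.8% were DEGs, 9.46% being higher and 12.4% lower in shTrem2, and 57.4% had an FDR under 0.05. The CPM of the groups did not overlap for 63.5% of tested genes, so absence of overlap was common in these data. Of the 8 receptors, 5 were tested, with 3 DEGs that were higher, 1 that was lower and 1 that was not called. Ccr1 and Ccr2 reached the filter's level of 0.534 CPM in 2 of 3 shNC libraries and in all 3 shTrem2 libraries, and 3 libraries were required, so both would have passed through shTrem2 alone. The receptors that passed are therefore not a neutral sample of the 8.

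Cx3cr1 (ENSMUSG00000052336) was by far the most abundant of these receptors. Its level was 80.6, 80.6 and 107 CPM in shNC replicates 1 to 3 and 352, 314 and 418 CPM in shTrem2 replicates 1 to 3. The lowest shTrem2 library thus stood well above the highest shNC library, and replicate 3 was the highest of each group. The log2 fold change was 2.05 (standard error 0.114, 95% confidence interval 1.80 to 2.29), with an adjusted p of 7.14e-09 in edgeR. It lay at percentile 99.4 of the fold changes of all tested genes. It was the best measured of the 8, with at least 1279 counts in every library. Between 97.5% and 99.4% of its counts per library came from 1 of its 2 transcript rows, so the rise did not rest on how reads were divided between transcripts. In bulk RNA, a larger share of cells with a transcript and more of it per cell cannot be told apart.

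On the FPKM scale, which corrects for transcript length and allows levels of different genes to be set side by side, Cx3cr1 stood first of the 8 in every library. It was deposited at 23.2, 23.2 and 30.9 FPKM in shNC and 101, 90.5 and 121 FPKM in shTrem2. In shNC, Ccrl2 came next at 4.16 to 9.23 FPKM, followed by Cxcr4, at 1.17 to 1.64 FPKM, and by Ccr1 (0.17 to 0.35 FPKM) and Ccr2 (0.08 to 0.22 FPKM), whose libraries overlapped. In shTrem2, Ccr1 rose to 2.80 to 2.96 FPKM and its libraries overlapped with those of Ccrl2 at 2.08 to 2.88 FPKM, above Cxcr4 at 1.22 to 1.65 FPKM and Ccr2 at 0.51 to 0.57 FPKM.

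The balance of receptor transcripts moved with Cx3cr1. Over the 8 receptors and 16 further chemokine receptors, the summed level was 36.8 to 44.1 FPKM in shNC and 107 to 137 FPKM in shTrem2. Of that sum, Cx3cr1 held 58.2%, 62.9% and 70.1% in the shNC libraries and 86.1%, 84.9% and 88.3% in the shTrem2 libraries. Without Cx3cr1 the sum was 13.2 to 16.7 FPKM in shNC and 16 to 16.3 FPKM in shTrem2. The groups overlapped through shNC replicate 1 alone (16.7 FPKM), in which Ccrl2 had 9.23 FPKM, while the other shNC libraries, at 13.7 and 13.2 FPKM, were below every shTrem2 library. Thus the summed rise was almost wholly that of Cx3cr1.

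**Figure D2:**
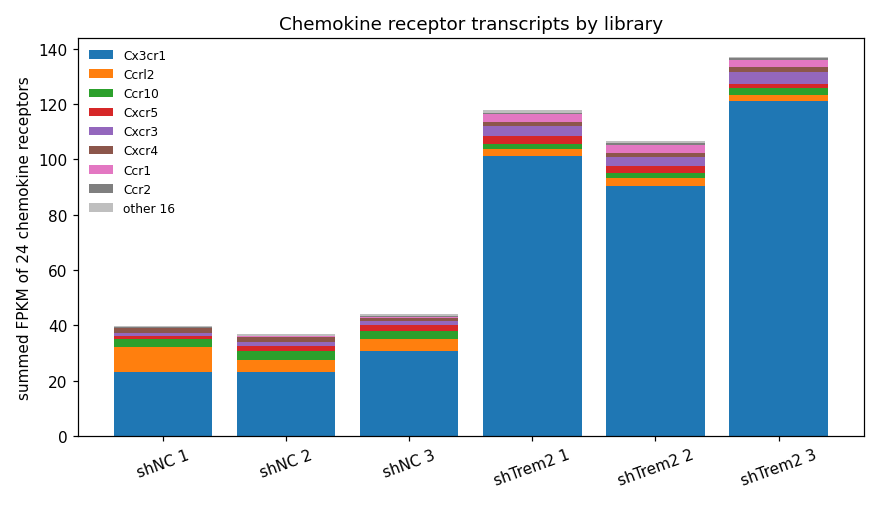
Summed FPKM of 24 chemokine receptors in each library, stacked by receptor. Cx3cr1 makes up 58.2% to 70.1% of each shNC bar and 84.9% to 88.3% of each shTrem2 bar, and the part above it spans 13.2 to 16.7 FPKM in shNC and 16 to 16.3 FPKM in shTrem2.

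Ccr1 (ENSMUSG00000025804) had the largest fold change of the 8. It had 7, 16 and 15 counts in shNC replicates 1 to 3, or 0.441, 0.900 and 0.829 CPM, and 146, 139 and 139 counts in shTrem2 replicates 1 to 3, or 7.50, 7.18 and 7.07 CPM. The shTrem2 libraries lay close together and far above the shNC libraries, in which the gene was only a few counts over the floor. The log2 fold change was 3.33 (standard error 0.235, 95% confidence interval 2.83 to 3.84), with adjusted p = 6.12e-08 from edgeR, at percentile 99.8 of all tested genes. That interval did not overlap with the one of Cx3cr1. Because shNC held 38 counts in all, the size depends on small numbers: on the log2(FPKM + 1) scale, which understates changes of low genes, the difference was 1.59.

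Ccr2 (ENSMUSG00000049103) rose from a level close to the floor. It had 4, 12 and 12 counts in shNC and 35, 32 and 31 counts in shTrem2, corresponding to 0.252, 0.675 and 0.663 CPM and to 1.80, 1.65 and 1.58 CPM. All shTrem2 libraries exceeded all shNC libraries, and shNC replicate 1 was the lowest. The log2 fold change was 1.66 (standard error 0.368, 95% confidence interval 0.87 to 2.45; adjusted p = 0.00158 in edgeR). Its interval overlapped with that of Cx3cr1. On the log2(FPKM + 1) scale the difference was 0.41 and below the fold threshold. Of 4 transcript rows, the leading one held 62.3% to 100% of the counts.

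Ccr1, Ccr3 and Ccr2 lie next to each other in the annotation (GENCODE M21) of chromosome 9, with Ccr1l1 as the only other gene between the outer ones. Cx3cr1 and Ccrl2 are on the same chromosome but further away, Ackr3 and Cxcr4 are on chromosome 1, and Ccr7 is on chromosome 11. Within the cluster, the genes on either side rose, whereas those between them were at or near the floor: Ccr1l1 had 0 counts in all 6 libraries, and Ccr3 had 7 in all.

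Ccrl2 (ENSMUSG00000043953) was the receptor that fell. Its level was 8.44, 6.92 and 7.24 CPM in shNC replicates 1 to 3 and 4.11, 4.91 and 3.66 CPM in shTrem2 replicates 1 to 3. Every shTrem2 library was below every shNC library. The log2 fold change was -0.80 (standard error 0.163, 95% confidence interval -1.15 to -0.45), and edgeR gave an adjusted p of 8.91e-04. It lay at percentile 9.34 of all tested genes. The estimated split between its 3 transcript rows varied between libraries. The first row held 49.8%, 20.4% and 61.4% of the counts in the shNC libraries and 55.9%, 69.1% and 56.1% in the shTrem2 libraries. The third row held 19.7 counts in shNC replicate 1, 3.97 in shNC replicate 2 and 0 in the other libraries. In the same library, shNC replicate 1, the gene's FPKM was 9.23, against 4.26 and 4.16 in the other shNC libraries, although its summed counts were nearly equal (134, 123 and 131). Whether the third row was a transcript of these cells was not tested. With an offset for effective length, which carries this split into the comparison, the log2 fold change was -1.20. With summed counts and without shNC replicate 1 it was -0.72.

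**Figure D3:**
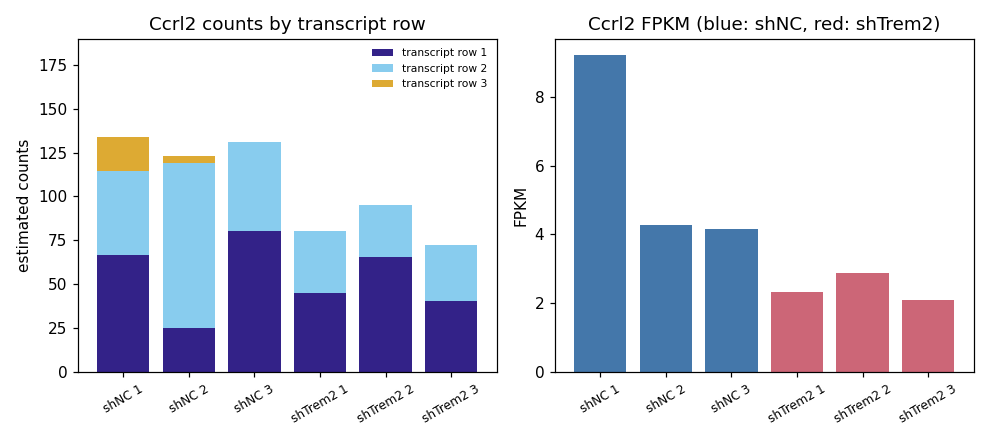
Estimated counts of Ccrl2 in each library, stacked by its 3 transcript rows (left), and its FPKM (right). Summed counts of the 3 shNC libraries lie between 123 and 134, while the FPKM of shNC replicate 1, 9.23, stands apart from 4.26 and 4.16, in the library with the most counts in the third row.

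Cxcr4 (ENSMUSG00000045382) showed no detectable difference. It was measured at 1.57, 1.80 and 1.22 CPM in shNC and at 1.49, 1.65 and 1.98 CPM in shTrem2, and the groups overlapped. Its fitted difference was 0.20 on the log2 scale, with a standard error of 0.283 and an edgeR adjusted p of 0.579. Its 95% confidence interval, -0.42 to 0.81, covers differences of over 1.5-fold upwards, so a rise of that size could have been missed at 22 to 39 counts per library.

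Ackr3 (ENSMUSG00000044337) was not detected, with 0 counts in all 6 libraries on both of its transcript rows. Ccr3 (ENSMUSG00000035448) had 4, 3 and 0 counts in shTrem2 and 0 in each shNC library, and exceeded the limit of 3 counts in 1 library. Ccr7 (ENSMUSG00000037944) had 4 counts in shNC replicate 1, 1 in shTrem2 replicate 2 and 0 elsewhere, and so also passed that limit in 1 library. No fold change is given for these 3 genes. Where the filter on low counts was removed, Ccr3 had an adjusted p of 0.0847 and Ccr7 one of 0.478 in edgeR. These values rest on 7 and 5 counts in all and are not read as differences. Without the filter the standard error of Cx3cr1 was 0.055, against 0.114 with it, so p-values of the 2 fits are not comparable. Of 4 eosinophil markers, Epx and Il5ra were at 0 in all libraries and none was tested, with a summed level of 0 to 0.28 CPM in shNC and 0 to 0.36 CPM in shTrem2. Of 6 dendritic cell markers, Flt3 was at 0, while Cd83, which activated macrophages also express, had 996 to 1470 counts, and the summed level was 71.6 to 76.4 CPM in shNC and 64.9 to 81.5 CPM in shTrem2.

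The 16 other chemokine receptors were mostly low: 3 had 0 counts throughout, 9 exceeded 3 counts in some library and 3 were tested. Among these 3, 1 was a DEG, against 21.8% of all tested genes, too few tested to set the list apart. Cxcr3, the receptor of the interferon-induced chemokines Cxcl9, Cxcl10 and Cxcl11, had 1.76, 2.25 and 2.10 CPM in the shNC libraries and 5.14, 4.75 and 6.0 CPM in those of shTrem2. It rose by 1.41 on the log2 scale (standard error 0.199, edgeR adjusted p = 4.12e-05), without overlap of the groups. Ccr10, a receptor of skin-homing lymphocytes, had a log2 fold change of -0.54 with an adjusted p of 0.0363, under the fold threshold, and Cxcr5, which guides B cells to follicles, one of -0.01 (adjusted p = 0.981 in edgeR). Leaving out shNC replicate 1 or shTrem2 replicate 3 raised the number of DEGs in this list from 1 to 2.

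Receptors for other chemoattractants moved in both directions. Of 12 listed, 11 were in the table and 7 were tested, with 2 DEGs higher and 1 lower. Over all tested genes 21.8% were DEGs, and with 7 tested this count is not a result about the list. Their median log2 fold change was -0.30, against 0.00 over all tested genes. That median was the value of C5ar2, which had 8 to 15 counts per library and no detectable difference (adjusted p = 0.538 in edgeR). S1pr1, the sphingosine 1-phosphate receptor that governs egress of lymphocytes, went from 2.27, 1.01 and 1.05 CPM in shNC to 4.16, 5.99 and 3.82 CPM in shTrem2 (log2 fold change 1.74, adjusted p = 2.57e-04 in edgeR). Ptafr, the receptor of platelet-activating factor, rose by 1.61 on the same scale (adjusted p = 1.96e-04). Ltb4r1, the high-affinity leukotriene B4 receptor, went from 1.83, 1.24 and 1.66 CPM in shNC down to 0.257, 0.465 and 0.560 CPM in shTrem2. Its log2 fold change was -1.83 (adjusted p = 9.55e-04 in edgeR), and it would have passed the filter through shNC alone. The complement receptors C3ar1 (0.43) and C5ar1 (-0.49) and the oxysterol receptor Gpr183 (-0.46) passed the FDR but not the fold threshold.

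**Figure D4:**
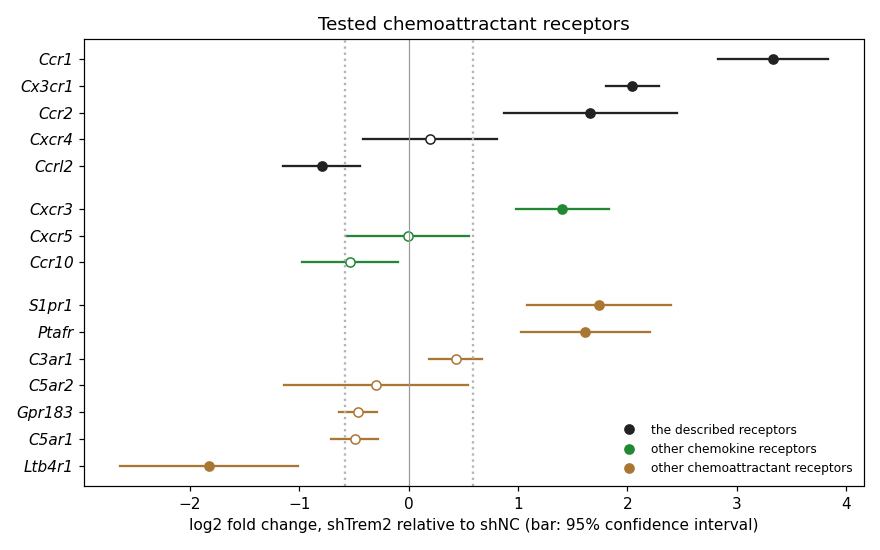
Log2 fold change of shTrem2 relative to shNC for the tested receptors, with 95% confidence intervals. Filled points are DEGs, open points are not, and dotted lines mark a fold change of 1.5. Ccr1, at 3.33, lies furthest to the right and Ltb4r1, at -1.83, furthest to the left.

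Ligands of these receptors were measured in the same cells. Of 19 listed ligands, 8 had 0 counts in all libraries, among them the Cxcr4 and Ackr3 ligand Cxcl12, the Ccr7 ligands Ccl19 and Ccl21a and the Ccr3 ligands Ccl11, Ccl24 and Ccl26. Cx3cl1, the ligand of Cx3cr1, had 4, 2 and 0 counts in shNC and 0, 0 and 2 in shTrem2. Of 6 tested ligands, 2 were DEGs, both lower, against 21.8% DEGs among all tested genes, too few tested to set the list apart. Ccl3, a ligand of Ccr1, was lower by 4.19-fold (log2 fold change -2.07, adjusted p = 4.61e-10 in edgeR), opposite in direction to its receptor, and Ccl4, an inflammatory chemokine of macrophages, was lower by 3.68-fold (-1.88). Ccl9, another Ccr1 ligand, had a log2 fold change of 0.38 with an FDR under 0.05 and below the fold threshold. Ccl2, the principal ligand of Ccr2, had 0, 1 and 2 counts in shNC and 9, 14 and 17 in shTrem2 and was not tested. Where the filter on low counts was removed, 4 ligands were DEGs.

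Of 18 genes that carry the signal inside the cell, none was a DEG, against 21.8% of all tested genes. For 10 of them the FDR was under 0.05, a share close to the 57.4% of all tested genes. Their median log2 fold change was 0.05. Without shNC replicate 3, 1 of them was a DEG. The highest values were those of Pik3cg, the PI3K catalytic subunit driven by G proteins (0.54), Dock2, a Rac activator of leukocyte migration (0.52), and Gnai2, the main inhibitory G protein of leukocytes (0.44), and the lowest those of the phospholipases Plcb3 (-0.46) and Plcb2 (-0.35). Of 12 genes that switch the receptors off, 10 were tested and 2 were DEGs, close to the 21.8% of all tested genes. All 10 had an FDR under 0.05, against 57.4% of all tested genes, and the median log2 fold change was 0.20. Rgs2, which speeds the return of G proteins to rest, rose by 1.32 on the log2 scale (adjusted p = 1.10e-07 in edgeR), and Rgs14 by 0.62 (adjusted p = 0.00124). Without shNC replicate 1 the value of Rgs14 was 0.50 and without shTrem2 replicate 3 it was 0.56, both under the fold threshold. Grk5, a receptor kinase, had a log2 fold change of 0.58, just short of that threshold.

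General macrophage genes moved as well, and not all in the direction of Cx3cr1. Among 8 tested markers, Lyz2, the macrophage lysozyme, rose by 1.39 on the log2 scale, the Fc receptor Fcgr1 by 0.85 and the growth factor receptor Csf1r by 0.76, whereas Itgam, the integrin subunit CD11b, had a log2 fold change of -0.78. The summed level of the 9 markers was 5388 to 6340 CPM in shNC and 10247 to 11624 CPM in shTrem2, and most of the gain was in Lyz2, from a mean of 2834 to 7270 CPM. Adgre1, the macrophage surface protein F4/80, had 127 CPM in shNC and 84.4 CPM in shTrem2, a log2 fold change of -0.56 below the fold threshold (adjusted p = 3.54e-05 in edgeR). IL-4-related genes were also split. Mrc1, the mannose receptor, rose by 2.76, while Il4ra, the IL-4 receptor subunit, had a value of -1.37 and the lectin Clec10a one of -0.78. Mrc1 had 5, 14 and 6 counts in shNC and 62, 71 and 56 in shTrem2. On the log2(FPKM + 1) scale its difference was 0.63. Mrc1 and Aqp1 would both have passed the filter through shTrem2 alone. The part of these macrophage and IL-4-related shifts in the receptor results was not tested. Aqp1, a water channel of proximal tubules that other cells also make, rose by 2.30, from 5 to 12 counts in shNC to 38 to 50 in shTrem2, Lck, a T cell kinase, by 0.62, and the dendritic cell factor Zbtb46 had a value of -0.84. The Lck call was lost without shNC replicate 1 (0.51), shNC replicate 2 (0.555) or shTrem2 replicate 1 (0.565). The other markers of the tubular epithelial list had at most 8 counts, and those of T cells at most 2.

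Over the 6 libraries, the expressed genes with profiles most like Cx3cr1 were Trim21, Lyz1 and Herc6. They were taken from 9602 tested genes whose mean log2 CPM reached 3, by the smallest root mean square difference between centred log2 CPM values, which was 0.10, 0.13 and 0.14. Trim21, an antibody receptor and ubiquitin ligase induced by interferon, had 2.83, 3.09 and 4.09 CPM in the shNC libraries and 12.8, 11.7 and 13.3 CPM in those of shTrem2. Lyz1, a lysozyme and near copy of Lyz2 with which it can share reads, ranged from 282 to 345 CPM in shNC and from 1301 to 1549 CPM in shTrem2. Herc6, the mouse ligase for the interferon-induced modifier Isg15, was at 7.31 to 10.5 CPM with shNC and 31.4 to 35.7 CPM with shTrem2. The measure rests mainly on the step between the groups, and a likeness over 6 libraries is a description.

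**Figure D5:**
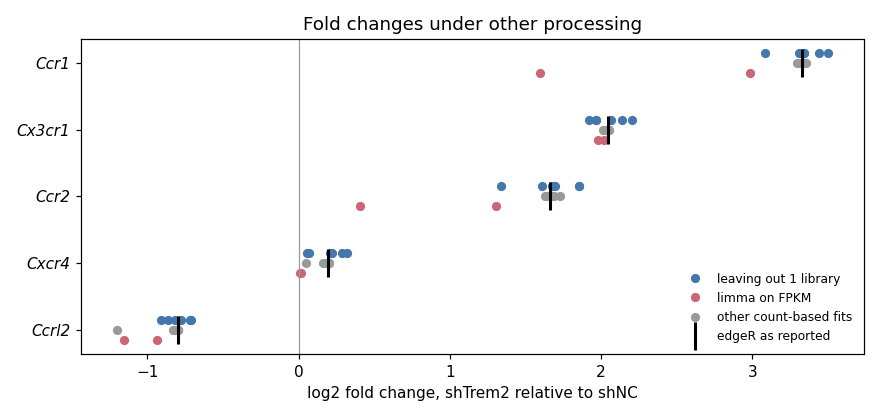
Log2 fold change of the 5 tested receptors under other processing: 1 library left out (blue), limma on FPKM values (red) and other count-based fits (grey), with the reported edgeR value as a black bar. Each receptor stays on its side of 0, Ccr1 and Ccr2 have their lowest values, 1.59 and 0.41, with FPKM and a pseudocount of 1, and Cxcr4 lies nearest to 0.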

How the data were processed

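RNA-seq of 6 RAW264.7 libraries, 3 shNC and 3 shTrem2, was analysed. Per the submitters' processing notes, reads were handled with fastp, HISAT2 and StringTie on GRCm39; the counting tool and annotation release are not given in the sources used here. The authors deposited estimated counts per transcript row, of which 79.3% of values above 0 were not whole, and FPKM values per gene, which are scaled by transcript length and library size. The authors' group-mean FPKM columns were not used. The rows of each symbol were added up, and sums were rounded. Rows without a symbol, 0.908% to 1.123% of counts, entered neither library sizes nor tests. CPM values were scaled to the named counts of each library (15876061 to 19655158).

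Genes were filtered with edgeR's filterByExpr and tested with edgeR 4.0.16 (quasi-likelihood, TMM factors, R 4.3.3, Benjamini-Hochberg adjustment over 13528 genes). Alternatives used DESeq2 1.42.0 and limma 3.58.1, other size factors, filters, FPKM pseudocounts of 1 and 0.1, a replicate block, thresholds and each library left out. The fits were tested on simulated data. Genes named by rule were the 8 receptors, Trem2, up to 4 DEGs per list with the largest changes, the receptors of the chromosome 9 cluster and the 3 profiles nearest to Cx3cr1. Other list members were chosen for naming after their values were seen. The receptors and lists were chosen with earlier results of these data known. Start-region sequences came from RefSeq on GRCm38.p6 and gene order from GENCODE M21, so no coordinate refers to the build of the counts.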

Additional observations from a re-analysis of the deposited data

How the results depend on the processing

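The calls of Cx3cr1 (1.92 to 2.20) and Ccr1 (1.59 to 3.50) held under every alternative that tested them. Cxcr4 was not called under any (0.01 to 0.32). Ccr2 fell under the fold threshold with limma on log2(FPKM + 1) (0.405, adjusted p = 0.0073), a scale that shrinks low genes by construction. Ccrl2 (-0.80) was not called at a fold change over 2. With at least 10 counts required in every library, the number of called receptors was 2 instead of 4, since Ccr1 and Ccr2 were then not tested. DEGs over all genes numbered 2951, against 7763 with no fold threshold and 1339 with a fold change over 2. Leaving out 1 library gave log2 fold changes of 1.92 to 2.20 for Cx3cr1, 3.08 to 3.50 for Ccr1, 1.34 to 1.85 for Ccr2, 0.06 to 0.32 for Cxcr4 and -0.91 to -0.71 for Ccrl2, and 2789 to 3105 DEGs. Over all tested genes, same-numbered libraries showed no shared deviation (correlations of 0.006, -0.004 and 0.007). These values pool all genes and cannot settle whether the numbers pair samples. With the replicate block the standard error of Cx3cr1 was 0.052, against 0.114 without it. Those of Ccr1 (0.258), Ccr2 (0.411), Cxcr4 (0.32) and Ccrl2 (0.174) were larger than without it. With the replicate block, 2911 genes were DEGs, and no call of the 5 tested receptors changed. Another 377 results covered 19 genes, namely Trem2 and the DEGs named by rule from the lists. Of these results, 360 kept their direction and call, 17 lost the call and 0 reversed. Since all 19 were DEGs in the reported fit, none could gain a call. Results that changed only a threshold could not reverse, so part of this tally was fixed in advance. Named genes that were not DEGs were not included. At 4 to 16 counts per shNC library, depth limits the precision of Ccr1 and Ccr2.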
